A study of Mus musculus with 170 samples.

Results

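Nppa, Nppb and Nppc encode the natriuretic peptides, Npr1, Npr2 and Npr3 encode their receptors, and Corin encodes the protease that cuts the Nppa precursor. These 7 genes were chosen by name, with earlier results of these data known, and all 7 were among the 40549 genes of the expression table. The table held single cells picked by hand from dissociated heart ventricles of C57BL/6 mouse embryos at embryonic day 9.5 and sequenced as Smart-seq2 libraries in 2 batches. The control cells (labelled wild type, and described by the study as Dgcr8 loxP/loxP with 1 ROSA26 mT/mG reporter allele and no Cre) numbered 74, and the cKO cells (labelled Mesp1Cre/+; Dgcr8-/-) numbered 69. The study describes the cKO cells as Mesp1 Cre/+ and Dgcr8 loxP/loxP with the same reporter allele. Dgcr8 encodes a subunit of the complex that makes microRNA precursors, and Mesp1-Cre deletes it in cells descended from the early cardiovascular mesoderm, so heart muscle, endocardium and other mesodermal cells of a cKO heart can all carry the deletion, whereas the controls differ from the cKO in the Cre allele as well. The labels name no embryo, so each genotype counted as 1 sample, no test between genotypes was possible, and the SDs below are spreads across cells.

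Natriuretic peptides are hormones of heart muscle. ANP (from Nppa) and BNP (from Nppb) are secreted by cardiomyocytes and act through the guanylyl cyclase receptor encoded by Npr1, CNP (from Nppc) acts through the related receptor encoded by Npr2, and the receptor encoded by Npr3 lacks the cyclase domain and clears all 3 peptides. In the embryonic heart Nppa and Nppb are known as markers of the differentiating chamber muscle, and Npr3 is known as a gene of the endocardium, the endothelial lining of the heart.

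Nppb (chr4:147985788-147987205) and Nppa (chr4:148000722-148002079) lie side by side on the plus strand of chromosome 4 in the GENCODE annotation of GRCm38, with 13516 bases between them. Their promoter windows are shown because the 2 genes varied together from cell to cell but differed between genotypes, as described below. The windows are RefSeq's for GRCm38.p6, at chr4:148000472-148000771 for Nppa and chr4:147985650-147985949 for Nppb, both on the plus strand, and each holds 250 bases before a transcript start and 50 bases from it on. For Nppa this start is the GENCODE start of the gene, whereas for Nppb it is base 147985900, which lies 112 bases downstream of the GENCODE start, so the Nppb window covers the GENCODE start as well. Capitals mark matches, on either strand, to the letters of 6 motifs.
Nppa: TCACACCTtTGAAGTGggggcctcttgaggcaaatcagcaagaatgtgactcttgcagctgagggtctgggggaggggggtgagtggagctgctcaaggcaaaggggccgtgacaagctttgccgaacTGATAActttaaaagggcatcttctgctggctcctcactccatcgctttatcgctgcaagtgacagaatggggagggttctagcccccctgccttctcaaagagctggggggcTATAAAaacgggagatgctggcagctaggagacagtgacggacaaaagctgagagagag
Nppb: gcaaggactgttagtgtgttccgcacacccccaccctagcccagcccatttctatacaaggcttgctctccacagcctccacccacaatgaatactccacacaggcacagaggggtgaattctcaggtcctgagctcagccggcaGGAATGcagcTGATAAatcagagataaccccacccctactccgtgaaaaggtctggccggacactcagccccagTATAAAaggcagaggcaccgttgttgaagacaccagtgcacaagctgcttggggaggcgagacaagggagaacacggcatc
Both windows held TATAAA, the core promoter motif, which was also in 13.6% of 32851 promoter windows of this length. Both also held TGATAA, a site of GATA factors, which was in 9.05%. The Nppa window alone held AGGTGTGA (T-box factors, in 1.28% of windows), read on the minus strand from its first base, and TNAAGTG (NK homeodomain factors, in 11.5%). The Nppb window alone held GGAATG (M-CAT, the motif of TEAD factors, in 14.7%). TATAAA began 9 bases before the start used for Nppa and 31 bases before that used for Nppb. TGATAA and GGAATG began 95 and 105 bases before the Nppb start, so all the Nppb matches lay downstream of its GENCODE start. The CArG box, the motif of serum response factor, was searched only as exact CCWWWWWWGG (W is A or T). It was in 1.63% of windows and in neither of these. Sites that differ from these letters were not searched for, so a looser CArG-like site may be present. A match is a run of letters and no evidence of binding.

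Cells were grouped by 55 marker genes, none of them a member. The cardiomyocyte-like (CM-like) group held 30 control cells (22 from batch 1, 8 from batch 2) and all 69 cKO cells (35 and 34), and all 15 cardiomyocyte markers were higher in it than in the other cells. The other control cells were 22 endothelial-like, 13 epicardial-like, which also had 8 of 14 mesenchymal markers raised, 5 erythroid-like and 4 unnamed cells. No cKO cell was outside the CM-like group, so the receptors of the other cell classes could be described in control cells only. The median number of genes detected per CM-like cell was 8281.5 in control and 9751 in cKO cells of batch 1, but 9704 and 7765 in batch 2, so depth differed between genotypes in opposite directions in the 2 batches. Dgcr8 itself, quantified over the whole gene and not over the deleted part alone, averaged 2.32 log2(TPM + 1) units in the control and 1.62 in the cKO cells of this group and reached 1 TPM in 15 of 30 and 21 of 69 cells. The control CM-like cells expressed the Y-linked gene Ddx3y (18 of 30 cells) and not Xist (0 of 30), whereas the cKO cells expressed Xist (64 of 69) and not Ddx3y (0 of 69), so genotype and embryo sex cannot be told apart. A count of 0 allows a share of up to 10.0% of 30 cells and 4.35% of 69 cells, for counting error only.

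Nppb was the 1 member of 7 whose mean differed between genotypes by at least 1 log2 unit with the same sign in both batches. In control CM-like cells Nppb ran from 0 to 1607 TPM with a median of 111, and in cKO cells from 0 to 12043 TPM with a median of 275. The highest cells were cKO cells, and the control range lay within that of the cKO. The control mean was 5.49 ± 3.55 log2(TPM + 1) units (SD, 30 cells) and the cKO mean 7.78 ± 3.30 (69 cells), a difference of 2.29 log2 units, with 1.69 in batch 1 and 2.38 in batch 2. Taking medians in place of means gave a smaller difference of 1.30. Most cells of both genotypes had some Nppb, with 26 of 30 control cells (86.7%, exact 95% interval 69.3 to 96.2) and 66 of 69 cKO cells (95.7%, 87.8 to 99.1) at 1 TPM or more. The shares differed at both ends of the range: 11 of 30 control and 10 of 69 cKO cells were under 10 TPM, and 2 of 30 control cells (6.67%) and 19 of 69 cKO cells (27.5%) had 1000 TPM or more. Mitochondrial genes made up over 20% of TPM in 5 of the 30 control and 2 of the 69 cKO cells. Nppb in these control cells was at 0.443, 0.463, 0.581, 435 and 826 TPM, so low control values came partly from such cells. Without cells over 20%, the mean difference was 1.95. Their part in the shares under 1 and 10 TPM was not tested.

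Nppa, the better known of the pair, was the more abundant gene and did not share this difference. It ran from 1.11 to 18342 TPM with a median of 1009 in control CM-like cells, and from 0 to 58985 TPM with a median of 562 in cKO cells. In the highest cKO cell Nppa was the most abundant gene of all and made up 5.90% of the cell's TPM, and in the same group 1 cell listed it at 0. The means were 8.25 ± 3.94 log2(TPM + 1) units in control cells and 8.598 ± 4.15 in cKO cells, a pooled difference of 0.35 log2 units. This difference had opposite signs in the batches, 0.63 in batch 1 and -1.27 in batch 2. After median-of-ratios scaling it was -0.35, and both batches were negative, at -0.25 and -1.09. Before this scaling, the sign of the batch differences was the same as that of the difference in genes detected per cell. The part of depth in it was not tested. At 1000 TPM or more were 15 of 30 control and 30 of 69 cKO cells, and under 10 TPM were 6 and 8 cells. The spread within a genotype was wide. In batch 2 of the cKO the lower quartile was 13.8 TPM and the upper quartile 9792 TPM.

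**Figure D1:**
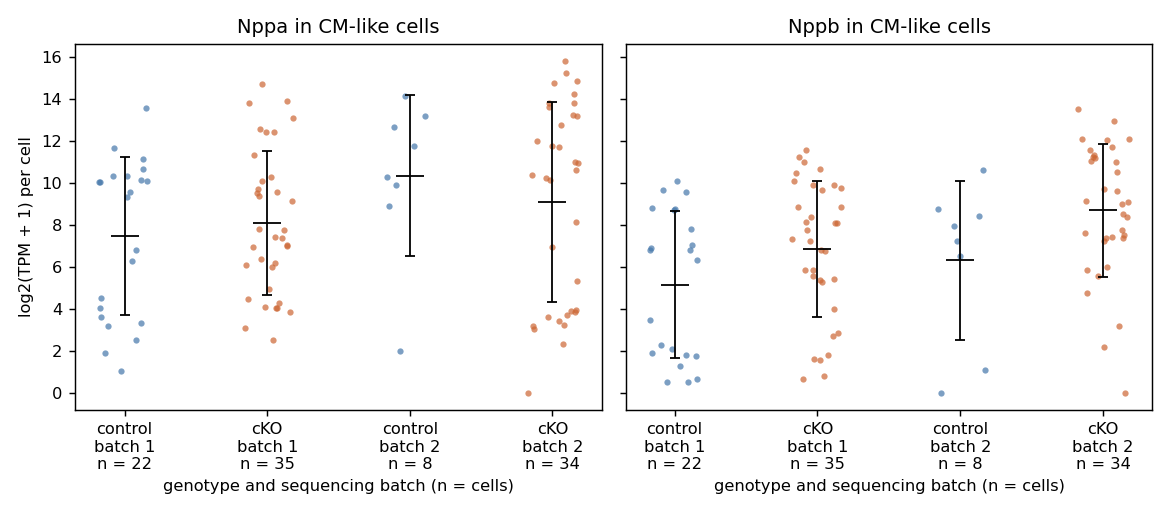
Nppa (left) and Nppb (right) in single CM-like cells, as log2(TPM + 1) on the y axis, by genotype and sequencing batch on the x axis. Each point is 1 cell, and the black bar and whiskers are the mean and SD across cells. The Nppb means are 5.18 and 6.87 in control and cKO cells of batch 1 and 6.34 and 8.71 in batch 2, whereas the Nppa means are 7.48 and 8.11 in batch 1 and 10.37 and 9.10 in batch 2.

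Nppc, the ligand made mainly outside heart muscle, was nearly undetected. It reached 1 TPM in 2 of 30 control cells, whose highest value was 57.8 TPM, and in 3 of 69 cKO cells, whose highest value was 9.37 TPM. All other control classes together added 2 endothelial-like, 1 epicardial-like and 1 erythroid-like cell with Nppc.

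Across all genes, 15143 had a TPM above 0 in more than 10 CM-like cells and were compared, and a gene was counted as higher or lower in the cKO where the pooled difference was at least 1 log2 unit with the same sign in both batches. By this rule 7.67% of the genes compared were higher and 3.69% were lower. Of the 7 members, 5 passed the filter on low values (Nppa, Nppb, Npr2, Npr3 and Corin), 1 of them (Nppb) was counted as higher and none as lower. The Nppb difference was the 118th highest and exceeded those of 99.2% of the genes compared, whereas that of Nppa exceeded 68.6%. The median difference over all genes was 0.11, and it was 0.24 in batch 1 and -0.20 in batch 2. Of the genes counted as either, 67.5% were higher. Scaling the cells by the median of ratios moved the median over all genes to -0.0049 and that share to 34.7%, and Nppb was still counted as higher, at 1.63.

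The 2 ligand genes varied together from cell to cell. Pearson's r between their log2(TPM + 1) values was 0.65 across 30 control cells and 0.69 across 69 cKO cells, and between 0.63 and 0.71 in each genotype within each batch, as a description of cells that share embryos and library preparation. Nppa and Nppb both reached 1 TPM in 26 of 30 control and 65 of 69 cKO cells. Their balance lay further toward Nppb in the cKO in both batches. Nppb minus Nppa per cell averaged -2.76 ± 3.15 log2 units in control cells and -0.82 ± 3.06 in cKO cells, with -2.30 against -1.24 in batch 1 and -4.03 against -0.39 in batch 2. Nppb exceeded Nppa in 4 of 30 control cells (13.3%, exact 95% interval 3.76 to 30.7) and in 23 of 69 cKO cells (33.3%, 22.4 to 45.7).

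**Figure D2:**
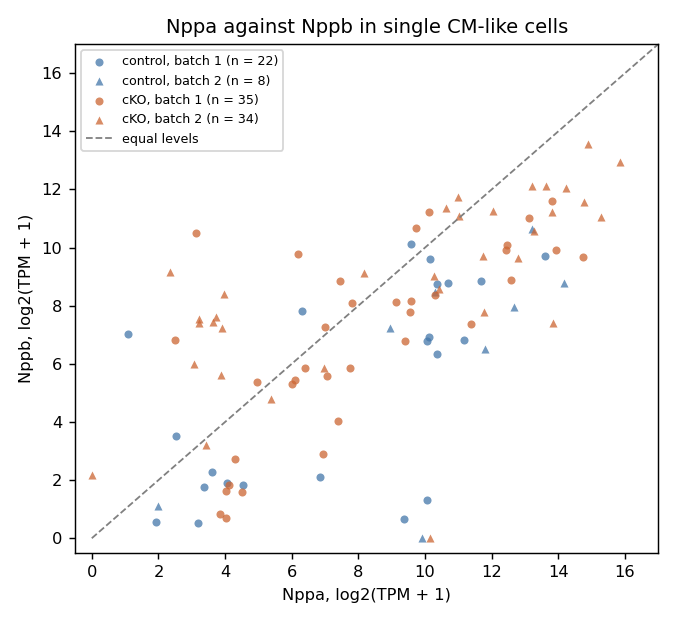
Nppa (x axis) against Nppb (y axis) in single CM-like cells, both as log2(TPM + 1), with genotype by colour, batch by symbol and a dashed line at equal levels. The points rise together in both genotypes, and 23 of 69 cKO cells and 4 of 30 control cells lie above the line.

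Corin, the protease that activates pro-ANP at the cell surface, was found in few cells. It reached 1 TPM in 7 of 30 control CM-like cells (23.3%, highest 37.8 TPM) and in 7 of 69 cKO cells (10.1%, highest 32.3 TPM), and its median was 0 in both. The mean difference was -0.55 log2 units (-0.16 in batch 1 and -1.67 in batch 2), below the 1-unit limit. The batch 2 value rested on 4 of 8 control cells. Corin and a high Nppa level met in 4 control cells and 1 cKO cell with 1000 TPM or more of Nppa.

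The receptors were scarce in heart muscle of either genotype. Npr1, the receptor of ANP and BNP, reached 1 TPM in 2 of 30 control and 4 of 69 cKO CM-like cells. Npr2, the receptor of CNP, did so in 5 of 30 and 11 of 69 cells, with a mean difference of 0.18 log2 units and opposite signs in the batches (0.56 and -0.45). For Npr3, the clearance receptor, the numbers were 4 of 30 and 2 of 69 cells, and the mean difference was -0.23 (-0.23 and -0.26). The highest values in control and cKO CM-like cells were 44.7 and 43.5 TPM for Npr1, 7.49 and 104.1 TPM for Npr2, and 4.76 and 2.34 TPM for Npr3. Npr2 reached 10 TPM in no control cell and in 5.80% of the cKO cells. At least 1 of the 2 cyclase receptors reached 1 TPM in 7 of 30 control and 15 of 69 cKO cells. In a cell that lists a receptor at 0, absence of the transcript cannot be told apart from a missed one.

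Endothelial-like control cells held the receptors of ANP and BNP. Npr3 (chr15:11839896-11907287, minus strand) averaged 4.28 ± 1.90 log2(TPM + 1) units in the 22 endothelial-like cells, with a lowest value of 0.056, a median of 26.4 and a highest of 91.2 TPM. The next classes were the 4 unnamed cells at 1.31 ± 2.58 and the 13 epicardial-like cells at 1.29 ± 1.35, which did not differ beyond their spread, followed by CM-like cells at 0.38 ± 0.80 and erythroid-like cells at 0.03 ± 0.06. Npr3 reached 1 TPM in 19 of 22 endothelial-like cells. In batch 2 all 15 were, from 6.06 to 91.2 TPM and so above every CM-like cell, whereas in batch 1 it was 4 of 7, and the other 3 of those were under 1 TPM. Npr1 (chr3:90450591-90465866, minus strand) was on or off in the same cells, at 18.1 TPM or more in 13 of 22 and at 0 TPM in the other 9. Its mean was 3.09 ± 2.69 in endothelial-like cells, 0.29 ± 1.14 in CM-like cells and 0.18 ± 0.41 in erythroid-like cells, and it was listed at 0 in all 13 epicardial-like cells. The 2 receptors met in 12 endothelial-like cells, which was 92.3% of the 13 cells with Npr1 and 63.2% of the 19 cells with Npr3. These shares were close to those over all 22 cells, 86.4% for Npr3 and 59.1% for Npr1. Pearson's r between the 2 receptors in these cells was 0.35.

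Npr2 (chr4:43631935-43651244, plus strand) had no such class. Its highest class mean was 0.77 ± 1.44 in epicardial-like cells (4 of 13 cells at 1 TPM or more, highest 28.5 TPM), followed by 0.42 ± 0.79 in CM-like and 0.37 ± 0.59 in endothelial-like cells, which did not differ beyond their spread. The epicardial-like value was 1.89 in the 4 cells of batch 1 and 0.27 in the 9 cells of batch 2. Corin (chr5:72300025-72504473, minus strand) averaged 1.29 ± 1.97 in endothelial-like cells (7 of 22 cells) and 0.95 ± 1.86 in CM-like cells (7 of 30 cells), again within their spread, and 0.21 ± 0.52 in epicardial-like cells.

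Nppa and Nppb were not confined to CM-like control cells. Nppa averaged 3.54 ± 2.08 in endothelial-like cells (median 9.90 TPM, 19 of 22 cells), 3.73 ± 3.26 in epicardial-like cells (median 5.46 TPM, 10 of 13 cells) and 7.01 ± 4.14 in the 5 erythroid-like cells (median 362.5 TPM). Nppb averaged 1.12 ± 1.37, 1.67 ± 2.33 and 2.80 ± 3.62 in these classes. Cardiomyocyte markers were present there too: the mean over the 15 markers was 9.93 log2 units in CM-like cells, and 3.81, 4.74 and 6.30 in the same 3 classes, with none of the 15 at 0 in all cells of a class. Class means mixed unlike cells. The highest single cell of each class was at 9.58, 6.67 and 10.2, so endothelial-like and erythroid-like classes each held a cell near the CM-like mean. Relative to CM-like cells, the Nppa difference was -4.72 log2 units in endothelial-like cells, where the differences of the 15 markers ran from -8.31 to -2.31 with a median of -6.51, and 13 of 15 markers were further below than Nppa. In epicardial-like cells 10 of 15, and in erythroid-like cells all 15, were further below. The part of RNA carried over from cardiomyocytes in these values was not tested.

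**Figure D3:**
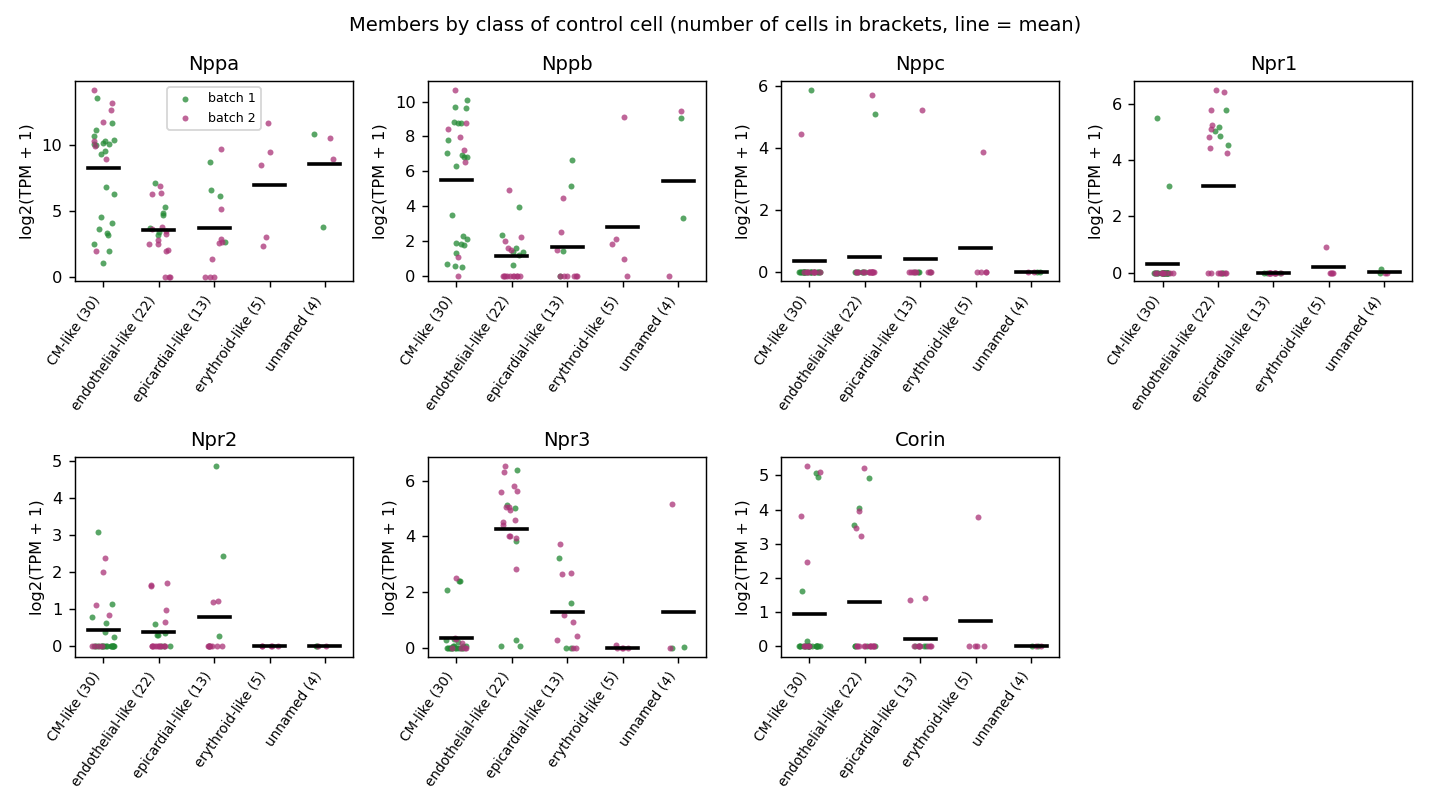
The 7 members in control cells, 1 panel each, as log2(TPM + 1) on the y axis by cell class on the x axis (y scales differ). Each point is 1 cell, coloured by batch, and the black line is the class mean. Npr3 and Npr1 have their highest means, 4.28 and 3.09, in endothelial-like cells, and Nppa and Nppb average 8.25 and 5.49 in CM-like cells.

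The genes most like each ligand over the 99 CM-like cells, by Pearson's r of log2(TPM + 1) centred within genotype and batch and among 9183 genes that reached 1 TPM in 25% of cells, were led by their own locus. For Nppa they were Gm13054 (0.69), Nppb (0.67), Mest (0.50), Nomo1 (0.43) and Pam (0.40), and for Nppb they were Nppa (0.67), Gm13054 (0.58), Pam (0.57), Sulf2 (0.45) and Mest (0.45). Gm13054 is an antisense gene on the minus strand at chr4:148001091-148004014, and it overlaps 989 of the 1358 bases of Nppa (72.8%). Smart-seq2 libraries do not keep the strand, so reads of the overlap cannot be told apart. Pam encodes the amidating monooxygenase, a membrane enzyme of secretory granules, Mest is an imprinted gene of fetal growth, and Sulf2 encodes a sulfatase that acts on heparan sulfate. Pam averaged 5.83 ± 2.16 log2 units in control and 6.82 ± 1.38 in cKO CM-like cells. Its difference of 0.98 (0.55 and 1.79 in the batches) was below the limit, and it was 0.29 after median-of-ratios scaling. Correlations with genes detected per cell, centred in the same way, were 0.16 for Nppa and 0.17 for Nppb, and those with the mean of the cardiomyocyte markers were 0.06 and 0.19. For Nppa the correlation with genes detected was 0.43 over the 30 control cells, with 0.22 in batch 1 and 0.76 in the 8 cells of batch 2, and -0.02 over the 69 cKO cells.

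Over all 74 control cells, centred within batch, the genes most like Npr3 were Gpr116 (0.85), Emcn (0.84), Flt1 (0.77), Sox7 (0.77) and Gpr182 (0.76). Emcn and Flt1 were among the endothelial markers used to group the cells, and Gpr116, Sox7 and Gpr182 are likewise known in endothelium. Those most like Npr1 were Dock6 (0.73), Prkch (0.72), Ctsh (0.72), Elk3 (0.72) and Prom1 (0.72), and Npr3 was the 41st, at 0.61. All 10 genes had their highest class mean in endothelial-like cells, from 3.63 for Prom1 to 7.31 for Emcn. Both sets of values carry the difference between classes.

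Downstream of the receptors lie the genes that make, bind and degrade cGMP. Of 20 genes of cGMP signalling, 16 were compared, 2 were higher in the cKO (12.5%, against 7.67% of all genes) and none was lower, and the median difference was 0.08. The 2 were Vasp, a cytoskeletal substrate of cGMP-dependent kinase (1.27, with 1.67 and 0.12 in the batches), and Gnai2, an inhibitory G protein subunit (1.21, with 1.28 and 1.08). Neither reached 1 log2 unit after median-of-ratios scaling, and there the median of the list was -0.09. Prkg1, the cGMP-dependent kinase of muscle, averaged 1.85 in control and 0.92 in cKO cells, and the subunits of soluble guanylyl cyclase averaged 2.29 and 1.97 (Gucy1a3) and 2.14 and 2.16 (Gucy1b3).

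Among 8 genes of peptide processing and clearance, 6 were compared, 1 was higher and 1 lower (16.7% each, against 7.67% and 3.69% of all genes), and the median difference was 0.50. The higher one was Pcsk5, a proprotein convertase, at 0.15 ± 0.38 in control and 1.49 ± 2.13 in cKO cells (a difference of 1.34, with 0.53 and 2.08 in the batches). Ide, the insulin-degrading enzyme that also cuts natriuretic peptides, was lower, at 3.75 ± 2.25 and 2.42 ± 2.57 (a difference of -1.33, with -0.95 and -2.41). Furin, the convertase that cuts pro-BNP, averaged 2.59 and 3.41, a difference of 0.81 that did not reach the limit.

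The list of known activators of the 2 ligand promoters held 13 factors of heart muscle. All 13 were compared, and the median difference was 0.87. Of them 5 were higher (38.5%, against 7.67% of all genes and 15.95% of those at 1 TPM in most cells). Like the other gene lists, this one was chosen with earlier results of these data known, so such shares describe the list only. Counted as lower was 1 (7.69%, against 3.69% and 7.22%). The higher ones were Myocd, a cofactor of serum response factor (2.32, with 2.27 and 2.15 in the batches), Tead1, which binds the M-CAT motif (2.10, with 2.07 and 2.33), Gata4 (1.75, with 2.26 and 0.36), Gata6 (1.12, with 1.02 and 0.52) and Tbx5 (1.08, with 0.42 and 0.93). Gata6 and Tbx5 fell below the limit after median-of-ratios scaling, at 0.80 and 0.57. The pooled differences of Myocd, Gata6 and Tbx5 lay above both of their batch values, and for Tbx5 neither batch reached 1 log2 unit. The batches held the genotypes in unequal proportions. The lower one was Hand1, a factor of the left ventricle, at 4.25 ± 3.51 in control and 1.11 ± 2.15 in cKO cells (a difference of -3.14, with -1.82 and -5.81). Nkx2-5 averaged 5.68 and 6.67, with 1.56 in batch 1 and -0.70 in batch 2. Of the 6 repressors none was counted in either direction, and the largest differences were those of Jarid2 (1.41, with 1.96 and -0.23) and Hey1 (0.70, with 1.19 and -0.46). Across the 99 CM-like cells no activator correlated with Nppa above 0.19 (Tbx5) or with Nppb above 0.25 (Tead1), beside 95th percentiles over all genes of 0.20 and 0.22.

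Nppa and Nppb are also used as markers of a loaded heart. Of 8 load-responsive cardiac genes 7 were compared, and none was lower. Of the 7, 3 were higher (42.9%, against 7.67% of all genes and 15.95% of those at 1 TPM in most cells). The 3 were Ankrd1, a nuclear and sarcomeric ankyrin repeat protein, at 6.69 ± 2.47 in control and 10.10 ± 1.31 in cKO cells (a difference of 3.41, with 2.88 and 4.28), Rcan1, a calcineurin regulator (3.23, with 3.85 and 1.196), and Acta1, skeletal actin (1.42, with 1.66 and 0.83). Acta1 was at 0.69 after median-of-ratios scaling, and the median of the list moved from 0.64 to -0.11. Ankrd1 had the highest correlation of this list with Nppb from cell to cell (0.43), whereas that of any list member with Nppa was at most 0.20 (Acta1).

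Genes of chamber and trabecular muscle, where Nppa is usually placed, were lower more often than higher. Of 13 genes 11 were compared, 1 was higher, and the median difference was -0.40. Of the 11, 4 were lower (36.4%, against 3.69% of all genes and 7.22% of those at 1 TPM in most cells). The lower ones were Cited1, a transcriptional cofactor (-3.25, with -2.10 and -6.16), Hand1, Pln, the regulator of the calcium pump (-2.49, with -1.47 and -3.13), and Sema3a (-1.03, with -0.54 and -2.10), which was at -0.93 after median-of-ratios scaling. Erbb4, the neuregulin receptor, was higher (1.91, with 2.10 and 1.33). The other lists of heart regions were short, and their counts stand beside 7.67% higher and 3.69% lower over all genes. Ventricular genes were lower for Myl2, the ventricular light chain (-3.39, with -1.86 and -4.60), and Mycn (-1.19, with -0.46 and -2.39), 2 of 4 compared. Of 4 atrial genes compared, Nr2f2 (1.17) and Stard10 (1.05) were higher and Angpt1 (-2.22) was lower, and Stard10 was at 0.98 after median-of-ratios scaling. Of 5 genes of the atrioventricular canal, Rspo3 was higher (1.28, and 0.82 after that scaling), and none of 3 outflow tract genes was counted, with Sema3c at 0.66 and Isl1 at 0.40. These lists are named for known regions, and not all of their genes were highest in muscle. Among control classes, Cited1, Hand1, Pln, Myl2 and Angpt1 had their highest mean in CM-like cells. Sema3a, Erbb4, Mycn, Nr2f2, Stard10 and Rspo3 had theirs in another class. Mycn averaged 4.67 in epicardial-like and 3.64 in CM-like cells, Nr2f2 3.75 and 0.38, and Sema3a 4.23 in endothelial-like and 1.40 in CM-like cells. Across the lists, 24 genes were counted as higher or lower. All 24 kept their sign after median-of-ratios scaling and 15 stayed past the limit.

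**Figure D4:**
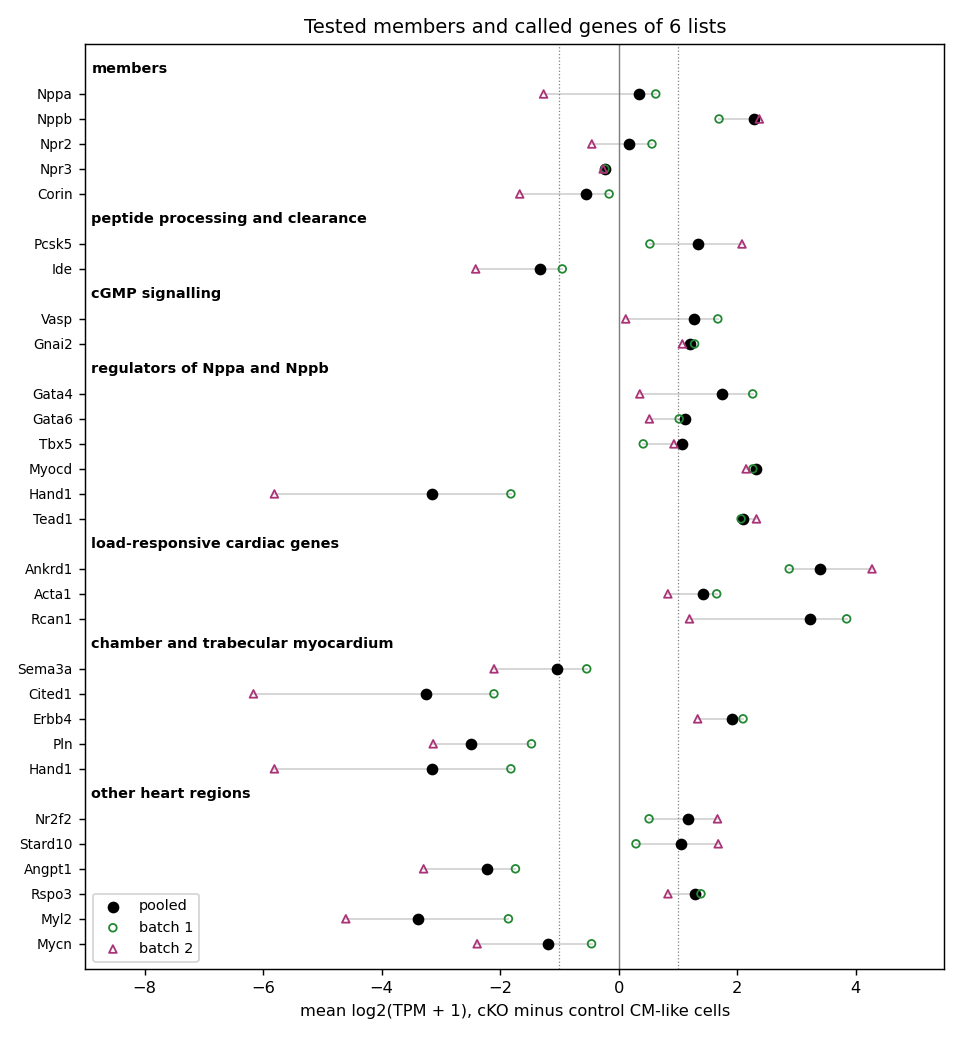
Difference in mean log2(TPM + 1) between cKO and control CM-like cells (x axis) for the 5 members compared and for the genes of 6 lists that were counted as higher or lower. Filled points are pooled values, open circles batch 1 and open triangles batch 2, and dotted lines mark 1 log2 unit. Nppb lies at 2.29, Ankrd1 at 3.41 and Myl2 at -3.39, and the Nppa values of the batches lie on either side of 0.

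Genes around Nppa and Nppb were compared as neighbours. Of 14 within 150 kb of Nppa 11 were compared, 1 was higher (9.09%, near the 7.67% of all genes) and none was lower, and the median difference was 0.15. The higher one was Plod1, a lysyl hydroxylase 91.0 kb below Nppa (1.30, with 1.15 and 0.92), which was at 0.91 after median-of-ratios scaling. Its pooled difference lay above both batch values. Clcn6, which starts 3.54 kb from Nppa and encodes a chloride transporter, had 1.25 in batch 1 and -0.35 in batch 2.

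**Figure D5:**
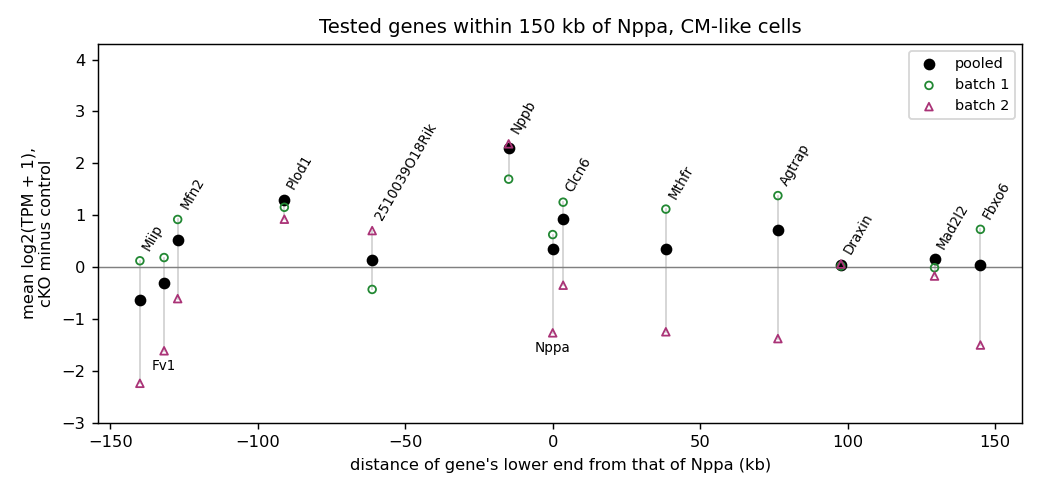
Difference in mean log2(TPM + 1) between cKO and control CM-like cells (y axis) for the tested genes around Nppa, by the distance of each gene's lower end from that of Nppa in kb (x axis). Filled points are pooled values, open circles batch 1 and open triangles batch 2. Nppb, 14.9 kb from Nppa, lies at 2.29, with 1.69 and 2.38 in the batches, and the other genes lie between -0.64 and 1.30.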

How the data were processed

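Salmon estimates against mm10, per the submitters' processing notes, were deposited by the authors as TPM (length-corrected transcript levels that sum to nearly the same total in every cell) for 143 of 170 labelled cells; the other 27 were not analysed here. The Salmon version and annotation release are not given in the sources used here. The authors kept cells with high mapping rates and left out cells whose reporter contradicted the genotype. TPM holds no read counts, so depth is unknown and genes detected (TPM above 0) stand in for it. Intervals are exact (Clopper-Pearson) at 95% and, like the limit of 3 cells for a count of 0, cover counting error only.

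Cells were clustered (Ward, z-scored log2(TPM + 1) of 55 markers, tree cut at 5) with scipy 1.17.1, numpy 2.4.6 and pandas 2.3.3 in Python 3.11.15. A class took the name whose markers were raised most often, with at least 3 raised. No doublet caller was run on these hand-picked cells. Fold changes are differences on the log2(TPM + 1) scale, which understates changes of low genes. No gene was tested for significance, because the labels name no embryo. Members and lists were chosen with earlier results of these data known. Named genes were the members, the genes of each list past the limit or else its 2 largest differences, and the 5 most like each of 4 members, while Dgcr8, Xist, Ddx3y, Pam, Furin, Prkg1, Gucy1a3, Gucy1b3, Nkx2-5 and Clcn6 were named after their values were seen. Alternatives were another pseudocount, filter, scaling, batch, cell subset and cut of the tree.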

Additional observations from a re-analysis of the deposited data

How the results depend on the processing

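The Nppb difference was positive under all 14 alternatives, from 1.30 (medians) to 2.54 (pseudocount 0.1). That of Nppa ran from -1.27 (batch 2 alone) to 1.18 (ratio of mean TPM) and was positive in 9 of 14. It was negative with medians, with batch 2 alone, with the mean of the batch differences, with cells of at least 7000 detected genes and with median-of-ratios scaling. Without the 7 CM-like cells over 20% mitochondrial TPM, an alternative chosen after seeing the data, Nppb was at 1.95 and Nppa at 0.20. With the ratio of mean TPM, Nppc moved to -1.48 and Npr2 to 1.65. The medians of both genes were 0 in CM-like cells of either genotype. Their highest CM-like cells were a control cell at 57.8 TPM for Nppc and a cKO cell at 104.1 TPM for Npr2. The part of such cells in these shifts was not tested. The other member values moved by less than the SD across cells, a wide yardstick for a difference of means, which does not show that they were stable. Corin went from -0.55 to -1.67 with batch 2 alone, past 1 log2 unit. The share of all genes higher in the cKO was 4.79% with no filter, 15.95% among genes that reached 1 TPM in most cells of either genotype, 12.4% at pseudocount 0.1 and 2.35% at pseudocount 10, and the share lower was 2.31%, 7.22%, 7.99% and 0.792%. The numbers of higher genes at these pseudocounts were 1880 and 356 beside 1161, and those of lower genes 1210 and 120 beside 559. With a TPM of at least 10 as detected, Npr3 was in none of the 30 control or 69 cKO CM-like cells. No paired analysis was possible because the titles number cells, not animals, and every value here is a description. Control CM-like cells of batch 2 numbered 8, which limits every batch 2 value.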

Other observations

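The 4 unnamed control cells, as a group led by mitochondrial transcripts, held the ligands on average at the level of CM-like cells while their cardiomyocyte markers were low. The cells were unlike. Mitochondrial genes made up 59.5%, 61.1%, 31.4% and 4.32% of TPM, and Nppb was at 543, 694, 0 and 8.88 TPM in the same order. The cell at 61.1% had 2063 genes detected, and that at 4.32% had the lowest Nppa. Their Nppa ran from 12.8 to 1872 TPM, with a mean log2(TPM + 1) of 8.56 ± 3.28 beside 8.25 ± 3.94 in CM-like control cells, and their Nppb averaged 5.46 ± 4.60 beside 5.49 ± 3.55. All 15 cardiomyocyte markers were lower in them than in CM-like cells, with differences from -6.52 to -2.74 log2 units and a median of -5.45. Npr1, Npr2 and Corin were under 1 TPM in all 4, and Npr3 reached 1 TPM in 1 of them. With the tree cut at 4 clusters these cells joined the CM-like group, and the genotype differences were then 0.31 for Nppa and 2.30 for Nppb.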
